A study of Homo sapiens with 6 samples.

Results

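Transcripts of 10 amino acid transporter genes (SLC7A5, SLC3A2, SLC43A2, SLC1A5, SLC1A4, SLC38A2, SLC38A1, SLC7A1, SLC7A2 and SLC1A3) were followed in bulk RNA sequencing of PANC-1, an established human line from a pancreatic ductal carcinoma. The members were taken by gene symbol from a table of 60623 genes, and each of the 10 matched 1 gene. Libraries titled shSTN1, a short hairpin RNA against STN1 in PANC-1 cells, numbered 3, and libraries titled shControl, a scramble hairpin in PANC-1 cells labelled wild type, also numbered 3. All cells were grown in DMEM with fetal bovine serum, and the sources used here give no time or further treatment. The genotype field of shSTN1 replicates 2 and 3 names STN2 and STN3 in place of STN1, and the grouping follows the titles. The labels call the libraries biological replicates without describing separate cultures, and p-values therefore reflect only how far these libraries scatter, which may be technical.

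Amino acids cross the plasma membrane through families of solute carriers. SLC7A5 exchanges large neutral amino acids such as leucine, and reaches the membrane only as a heterodimer with the glycoprotein SLC3A2. Sodium-coupled carriers of the SLC38 and SLC1 families load the cell with small neutral amino acids, glutamine or glutamate, and the cationic carriers SLC7A1 and SLC7A2 bring in arginine and lysine. In pancreatic carcinoma these carriers are known as suppliers of leucine, glutamine and arginine to mTORC1 signalling and biosynthesis, and many of them are transcribed under ATF4, the factor that responds to amino acid shortage.

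The libraries held 17357223 to 23336942 counted reads. STN1 stood at 14.8 ± 0.793 CPM in shSTN1-labelled and 16.4 ± 1.95 CPM in control libraries (reads scaled to library size, CPM, SD, n = 3 each), a log2 fold change of -0.15 that did not pass (edgeR adjusted p = 0.253). With library totals in place of TMM factors it was -0.35 and passed (edgeR adjusted p = 0.00909). CDKN2A, which PANC-1 is described as lacking, had 0 reads over the shSTN1-labelled and 11753 reads over the control libraries, at least 3812-fold lower with a floor of 3 reads over the group. Epithelial and carcinoma markers, 13 of 14 of them tested, were all higher among those tested, with a summed level of 6689 to 6914 CPM in shSTN1-labelled against 1130 to 1212 CPM in control libraries, most of the reads in it from KRT8, KRT19 and KRT18. Markers of embryonic kidney lines included 10 of 12 that were lower and 1 that was higher. Of all genes tested 35.6% were higher and 38.5% lower, and both marker counts are read against these shares. The summed level of the embryonic kidney line markers was 159.9 to 166.3 CPM in shSTN1-labelled against 874.1 to 985.7 CPM in control libraries. IRS4 had 3 reads over the shSTN1-labelled and 20505 reads over the control libraries. In control libraries IRS4, NEFM and ZIC2 gave the most reads of these markers, and in shSTN1-labelled libraries PAX2 and ZIC2 did. SALL1 and HMX1 were at 0 in every shSTN1-labelled library, and PAX2 was the marker that was higher. Leukocyte markers summed to 16.3 to 20.2 CPM in shSTN1-labelled against 15.9 to 18.0 CPM in control libraries, with CD3E at 0 in both groups and PTPRC at 0 in control. The endothelial sum was 1.87 to 2.44 CPM in shSTN1-labelled against 1.14 to 2.19 CPM in control libraries with PECAM1 at 0 in both. The fibroblast sum was 147.2 to 161.7 CPM in shSTN1-labelled against 64.6 to 78.4 CPM in control libraries, with most of the reads from COL1A1. DCN was at 0 in shSTN1-labelled libraries. The hairpin and a difference in cells between the groups cannot be told apart in these libraries, and in bulk RNA fewer cells of a type and less RNA per cell cannot be told apart either.

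In the shSTN1-labelled libraries 4 of the 10 transporters were higher and 5 were lower at an edgeR adjusted p of 0.05. Among all 17451 genes tested the shares were 74.1% in either direction, 35.6% higher and 38.5% lower, so a call is common in these data and the members' count is not a result about them. The groups did not overlap for 9 of the 10, against 75.6% of all genes, and 4 of the 10 were called with at least a 2-fold change, against 34.6%. The neutral amino acid carriers SLC7A5, SLC43A2 and SLC38A2 and the heavy chain SLC3A2 were 1.30 to 1.77-fold higher. The glutamine and serine exchangers SLC1A5 and SLC1A4 were at 48.0% and 49.0% of control and the arginine carrier SLC7A1 at 60.1%. SLC7A2 was at 9.21% of control, and SLC1A3 had 3 reads in all in shSTN1-labelled against 1864 in control libraries. SLC38A1 did not pass. The median log2 fold change of the members was -0.35, against -0.03 for all genes tested. All 10 passed the filter on low counts, SLC1A3 only through the control libraries.

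**Figure D1:**
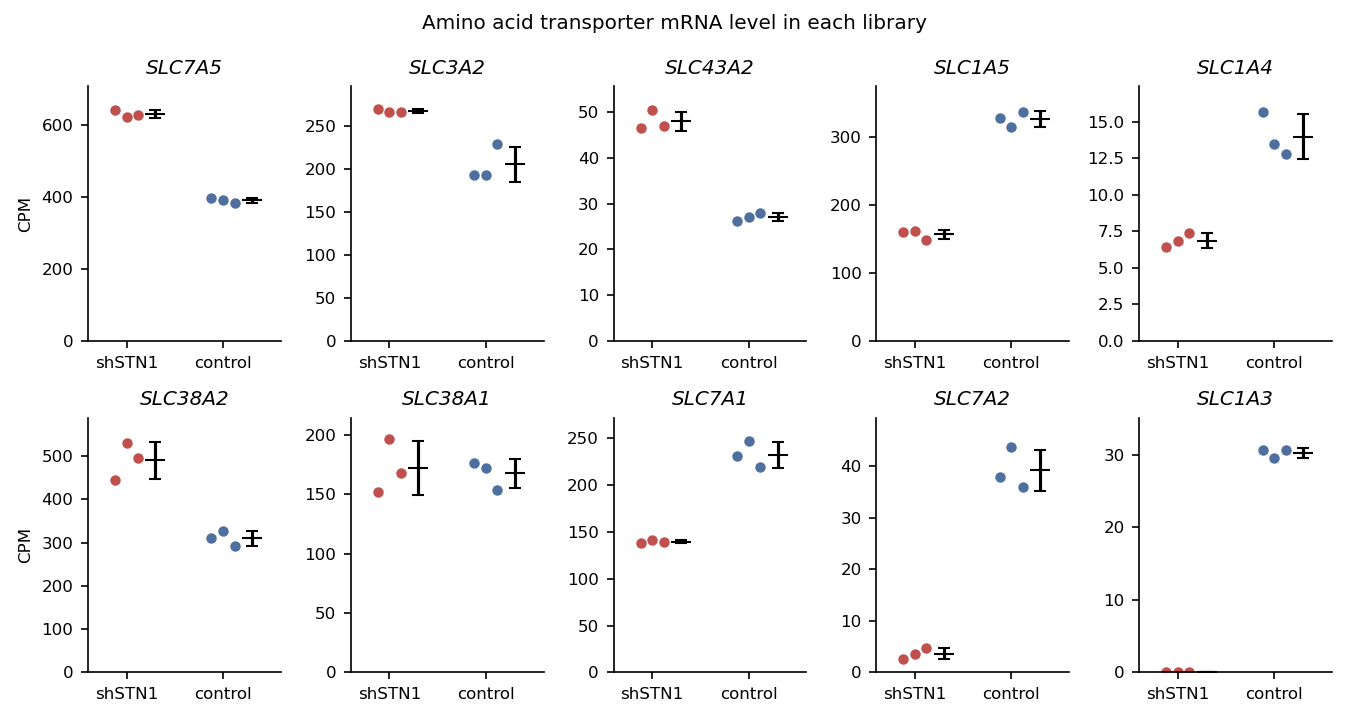
CPM (vertical axes, each from 0) of the 10 transporters in each library, shSTN1-labelled in red and control in blue, with the mean and SD of 3 libraries in black beside the points. SLC7A5, SLC3A2, SLC43A2 and SLC38A2 lie higher in all 3 shSTN1-labelled libraries, SLC38A1 overlaps, and the other 5 lie lower.

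**Figure D2:**
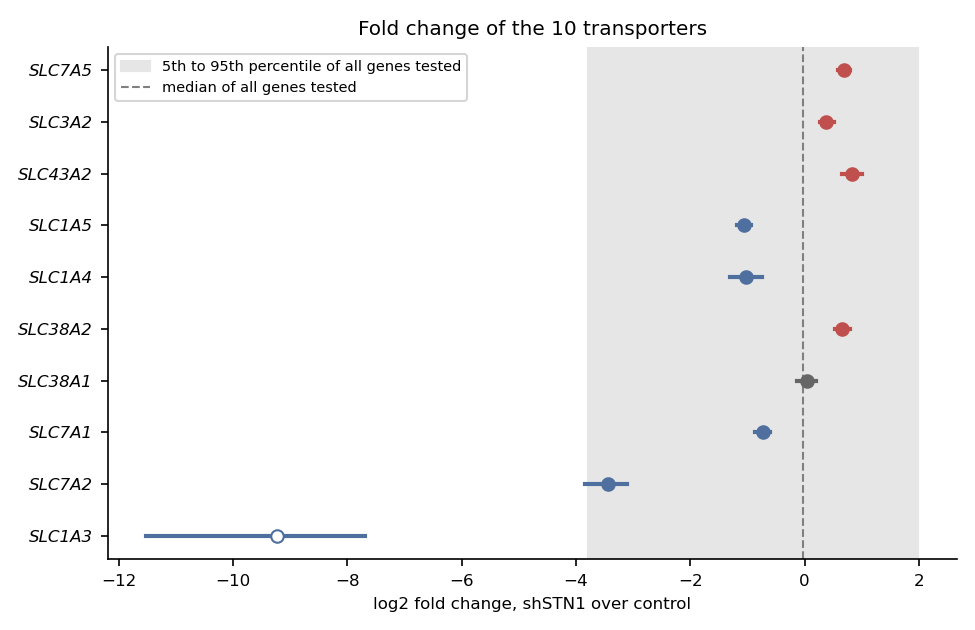
Log2 fold change of shSTN1-labelled over control libraries (points) with limma-voom 95% intervals (bars), red for higher, blue for lower and grey for not passed. SLC1A3, with 3 reads in the shSTN1-labelled libraries, is an open point drawn from the ratio of reads with its exact counting interval, and it is the only member wholly outside the grey band, which spans the 5th to 95th percentile of all genes tested (-3.79 to 1.99).

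SLC7A5, SLC3A2 and SLC43A2, the members that carry large neutral amino acids or anchor their carrier, were higher, whereas the related carriers SLC7A8 and SLC43A1, described further on, were lower. SLC7A5 (ENSG00000103257.9, chromosome 16, 87830023 to 87869488 in GRCh38) stood at 643.6, 622.8 and 628.1 CPM in shSTN1-labelled libraries, against 397.7, 391.8 and 382.9 CPM in control libraries. The groups were far apart and each was tight. This is 161.6% of control (limma-voom 95% interval 149.8% to 174.3%), a log2 fold change of 0.69 with an SE of 0.0213 (edgeR adjusted p = 4.03e-12). A pseudogene, SLC7A5P1, had 107 reads in shSTN1-labelled against 141 in control libraries, beside 37843 reads of SLC7A5 in shSTN1-labelled against 24088 in control libraries.

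SLC3A2 (ENSG00000168003.16, chromosome 11, 62856102 to 62888875), the heavy chain that carries SLC7A5 and other light chains to the membrane, had 269.8, 265.9 and 265.9 CPM in shSTN1-labelled libraries, against 192.9, 193.0 and 228.8 CPM in control libraries. Control replicate 3 lay nearer to the shSTN1-labelled libraries than the other controls did, and the groups did not overlap. SLC3A2 was higher by 0.38 on the log2 scale (SE 0.0822, edgeR adjusted p = 5.86e-06). With library totals in place of TMM factors it was 0.19 (adjusted p = 0.0125), since that scaling moves the median of all genes to -0.22.

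SLC43A2 (ENSG00000167703.14, chromosome 17, 1569267 to 1628886), a carrier of neutral amino acids that works without a heavy chain and without sodium, had 46.6, 50.4 and 47.0 CPM in shSTN1-labelled libraries, against 26.2, 27.2 and 28.0 CPM in control libraries. It had the largest increase of the 10 genes (log2 fold change 0.82, SE 0.0451, edgeR adjusted p = 4.57e-10). Its level nevertheless stayed far under that of SLC7A5. Per kb of exon, SLC43A2 had 4.52 ± 0.197 CPM per kb in shSTN1-labelled libraries, where SLC7A5 had 133.1 ± 2.28.

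The balance of light to heavy chain was compared as well. Per length, the ratio of SLC7A5 to SLC3A2 reads was 2.60, 2.56 and 2.58 in shSTN1-labelled libraries, against 2.25, 2.22 and 1.83 in control libraries. The groups did not overlap, and the log2 ratio was higher by 0.30 (SE 0.0971). An exact two-sided permutation test gave p = 0.1, the smallest that 3 against 3 libraries allow, and 0.15 after adjustment over the 3 ratios compared. Without control replicate 3 the difference was 0.21.

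The alanine, serine and cysteine exchangers were lower. SLC1A5 (ENSG00000105281.12, chromosome 19, 46774883 to 46788594), the main sodium-dependent exchanger of glutamine in many tumour lines, had 160.0, 161.7 and 149.2 CPM in shSTN1-labelled libraries, against 328.7, 314.9 and 337.1 CPM in control libraries. Every shSTN1-labelled library lay under every control library. SLC1A5 was at 48.0% of control (limma-voom 95% interval 44.1% to 52.4%), or -1.06 on the log2 scale with an SE of 0.0462 (edgeR adjusted p = 3.08e-16).

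SLC1A4 (ENSG00000115902.11, chromosome 2, 64988477 to 65023865), its relative with a preference for alanine, serine and cysteine, had 6.40, 6.83 and 7.38 CPM in shSTN1-labelled libraries, against 15.7, 13.5 and 12.8 CPM in control libraries. The groups did not overlap (log2 fold change -1.03, SE 0.106, edgeR adjusted p = 4.55e-08). Per length, the ratio of SLC1A5 to SLC1A4 was 51.9, 49.2 and 42.0 in shSTN1-labelled libraries, against 43.6, 48.6 and 54.8 in control libraries. These ratios overlapped. Their log2 difference was -0.04 (SE 0.132, exact two-sided permutation p = 0.8), and it turned to 0.05 without replicate 3 of either group.

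Of the sodium-coupled system A genes SLC38A2 was higher and SLC38A1 did not pass. SLC38A2 (ENSG00000134294.14, chromosome 12, 46358189 to 46372867), known as the member of the system that cells raise when amino acids are short, had 445.6, 531.0 and 494.6 CPM in shSTN1-labelled libraries, against 309.8, 327.0 and 293.0 CPM in control libraries. It was higher in every shSTN1-labelled library (log2 fold change 0.66, SE 0.0865, edgeR adjusted p = 1.60e-10). SLC38A1 (ENSG00000111371.16, chromosome 12, 46183063 to 46270017), its neighbour and paralog, had 151.6, 196.2 and 167.5 CPM in shSTN1-labelled libraries, against 176.4, 172.0 and 153.7 CPM in control libraries. The groups overlapped, with the highest and the lowest value both in the shSTN1-labelled group. SLC38A1 differed by 0.04 on the log2 scale (SE 0.124, edgeR adjusted p = 0.663), and the limma-voom 95% interval ran over 91.6% to 114.1% of control. Its sign turned with library totals (-0.16), without shSTN1 replicate 2 (-0.06) and without control replicate 3 (-0.03).

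Per length, the ratio of SLC38A2 to SLC38A1 was 4.46, 4.10 and 4.48 in shSTN1-labelled libraries, against 2.66, 2.88 and 2.89 in control libraries. The ratio was higher in each shSTN1-labelled library, by 0.63 on the log2 scale (SE 0.0563, exact two-sided permutation p = 0.1, 0.15 after adjustment over the 3 ratios), and this value does not depend on the scaling between libraries.

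The cationic carriers were lower by different amounts. SLC7A1 (ENSG00000139514.13, chromosome 13, 29509410 to 29595688), the widely expressed arginine and lysine carrier, had 138.1, 142.0 and 139.6 CPM in shSTN1-labelled libraries, against 231.8, 246.8 and 219.4 CPM in control libraries. The groups did not overlap (log2 fold change -0.73, SE 0.0504, edgeR adjusted p = 4.59e-12). SLC7A2 (ENSG00000003989.17, chromosome 8, 17497088 to 17570573), a second arginine carrier known for induction in macrophages, had 2.64, 3.62 and 4.65 CPM in shSTN1-labelled libraries, against 37.8, 43.7 and 36.0 CPM in control libraries. Its reads numbered 215 in the 3 shSTN1-labelled against 2425 in the 3 control libraries (log2 fold change -3.44, SE 0.245, edgeR adjusted p = 1.36e-20), at 9.21% of control.

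SLC1A3 (ENSG00000079215.14, chromosome 5, 36606355 to 36688334), a sodium-coupled importer of glutamate and aspartate best known from astrocytes, was nearly without reads in one group. The shSTN1-labelled libraries held 2, 1 and 0 reads, whereas the control libraries stood at 30.7, 29.5 and 30.7 CPM. Control libraries were 604.6 times higher in reads per scaled library (exact 95% interval 206.6 to 2934, counting error only). The edgeR adjusted p was 1.29e-24, for a gene that passed the filter on low counts only through the control libraries. Of 12 embryonic kidney line markers, with a summed 874.1 to 985.7 CPM in control libraries, 10 were lower, as SLC1A3 and SLC7A2 were. Of all genes tested 38.5% were lower. PAX2 was higher (log2 fold change 1.37) and LHX1 did not pass (0.27). The part of these markers in these results was not tested.

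Levels of the 10 transporters were compared with each other per kb of annotated exon. In shSTN1-labelled libraries the order was SLC7A5 (133.1 ± 2.28 CPM per kb), SLC38A2 (74.3 ± 6.49), SLC3A2 (51.6 ± 0.429), SLC1A5 (47.1 ± 2.03), SLC7A1 (18.2 ± 0.259), SLC38A1 (17.2 ± 2.26), SLC43A2 (4.52 ± 0.197), SLC1A4 (0.99 ± 0.0707), SLC7A2 (0.46 ± 0.128) and SLC1A3 (0.00763 ± 0.0078). Only SLC7A1 and SLC38A1 overlapped as neighbours in that order. In control libraries SLC1A5 came first (98.1 ± 3.36 CPM per kb), before SLC7A5 (82.4 ± 1.57), SLC38A2 (46.9 ± 2.57), SLC3A2 (39.6 ± 3.99), SLC7A1 (30.3 ± 1.78), SLC38A1 (16.7 ± 1.20), SLC7A2 (4.95 ± 0.509), SLC1A3 (4.84 ± 0.113), SLC43A2 (2.56 ± 0.0844) and SLC1A4 (2.01 ± 0.219). There SLC7A2 and SLC1A3 were the neighbours that overlapped. Exon lengths are those of all annotated exons joined, so a gene that uses a short transcript is understated.

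The sum over the 10 genes was 342.0 to 355.8 CPM per kb in shSTN1-labelled and 327.9 to 328.8 CPM per kb in control libraries. The groups did not overlap, with a mean at 105.8% of control. This small difference depends on the scaling, since library totals move the median log2 fold change of all genes from -0.03 to -0.22. The make-up of the sum, which does not depend on the scaling between libraries, differed as well. SLC7A5 took 38.3 ± 1.39% of the sum in shSTN1-labelled and 25.1 ± 0.46% in control libraries, and SLC38A2 took 21.4 ± 1.47% in shSTN1-labelled and 14.3 ± 0.792% in control libraries. SLC1A5 took 13.6 ± 0.522% in shSTN1-labelled libraries against 29.9 ± 1.00% in control libraries. The shares are bound to each other, since they sum to a fixed total within a library.

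**Figure D3:**
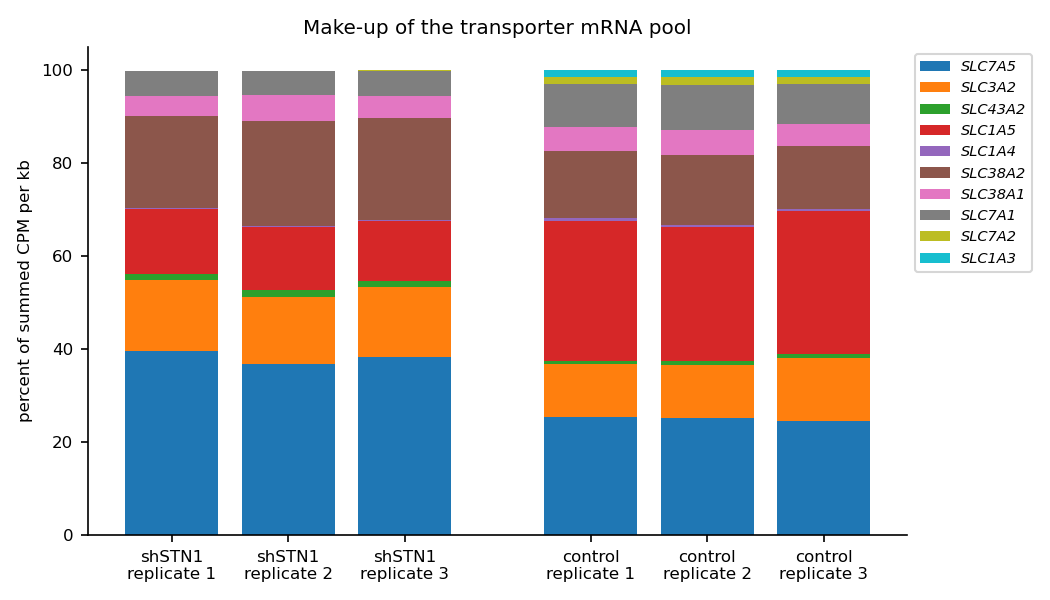
Percent of the summed CPM per kb of the 10 transporters (vertical axis) taken by each gene in each of 6 libraries, the 3 shSTN1-labelled ones on the left. SLC7A5 has the largest share in shSTN1-labelled libraries (36.9% to 39.7%), and SLC1A5 in control libraries (28.8% to 30.8%).

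Sequence around the transcription starts was examined because ATF4 and MYC, which bind different short motifs and are known to act on several of these genes, both had lower transcript levels in the shSTN1-labelled libraries. ATF4 had 286.3 ± 12.4 CPM in shSTN1-labelled and 789.2 ± 69.9 CPM in control libraries, lower by a log2 value of -1.46 (edgeR adjusted p = 3.33e-19). MYC, named after its value was seen, had 112.4 ± 4.01 CPM in shSTN1-labelled and 280.4 ± 3.70 CPM in control libraries (-1.32 on the log2 scale, edgeR adjusted p = 8.21e-19). RefSeq windows of 250 bases before to 50 bases after a start (GRCh38.p14) were available for 9 of the 10 members, 19 windows in all since several genes have more than 1 start. The core of the composite C/EBP-ATF element, TGATGNAA on either strand, was in 6 of the 19 windows and in 6 of the 9 genes. Over all genes it was in 3.62% of 35116 windows and in 4.46% of the 27305 genes with a window. The members have more windows per gene, which raises their share by gene. Several were known beforehand as genes on which ATF4 acts, so these shares are a description and were not tested. The E-box CACGTG, which reads the same on both strands and does not overlap the first motif, was in 2 of 19 windows, against 7.26% of all windows.

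The sites below show 30 bases each, 5′ to 3′ on the gene's strand, with the motif in capitals, because they let members with opposite changes be set side by side. They lie at chr2:64989381-64989410 (SLC1A4, plus strand), chr5:36596357-36596386 (SLC1A3, plus), chr11:62881719-62881748 (SLC3A2, plus), chr12:46266502-46266531 (SLC38A1, minus), chr13:29595663-29595692 (SLC7A1, minus) and chr19:46784893-46784922 (SLC1A5, minus).
SLC1A4: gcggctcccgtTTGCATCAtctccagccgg
SLC1A3: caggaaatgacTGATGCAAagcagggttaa
SLC3A2: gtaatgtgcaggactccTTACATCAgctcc
SLC38A1: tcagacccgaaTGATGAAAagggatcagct
SLC7A1: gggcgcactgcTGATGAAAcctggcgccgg
SLC1A5: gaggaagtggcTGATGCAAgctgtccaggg
The match begins 7 bases before an inner start in SLC1A4, 4 before one in SLC38A1 and 97 before one in SLC1A5. In SLC3A2 it begins at base 38 from an inner start, and the windows of the other listed SLC3A2 starts held no match. In SLC7A1 it begins at base 8 of the transcript, and in SLC1A3 220 bases before an upstream start. Of these 6 genes SLC3A2 was higher, SLC38A1 did not pass and the other 4 were lower. Which starts these cells use was not measured, and a match is a stretch of letters, not a bound site.

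The E-box occurred before a start of SLC7A5, which was higher, and of SLC1A5, which was lower. The 250 bases before the SLC7A5 start (chr16:87869508-87869757, minus strand) are shown whole as the promoter of the most abundant member in shSTN1-labelled libraries. The site of SLC1A5, at chr19:46787326-46787355 on the minus strand, begins 50 bases before its second listed start. That of SLC7A5 begins 130 bases before the start.
SLC7A5: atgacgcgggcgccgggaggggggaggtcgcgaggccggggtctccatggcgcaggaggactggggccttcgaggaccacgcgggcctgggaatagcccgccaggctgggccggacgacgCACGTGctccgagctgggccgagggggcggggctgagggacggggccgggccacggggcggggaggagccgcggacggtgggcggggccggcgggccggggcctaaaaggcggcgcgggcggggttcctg
SLC1A5: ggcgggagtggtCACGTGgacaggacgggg
The GC content of the SLC7A5 window was 80.3%, that of SLC7A1 82.0% and that of SLC38A2 72.0%, whereas the upstream window of SLC1A3 had 43.0%.

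Genes around the members were described because changes of a whole stretch of chromosome would touch a member too. Of all genes tested 38.5% were lower and 35.6% higher, and the counts of neighbours are read against these shares. Tested genes with a start within 1 Mb of the start of SLC1A3 numbered 12, of which 9 were lower and 0 higher (lowest -7.72, highest -0.16). SLC1A3 lay under each of them. Around SLC7A2, 8 of 12 neighbours were lower and 2 higher, with a median of -0.64, and SLC7A2 again lay under all of them. Around SLC1A5, 28 of 42 were lower and 7 higher, with a median of -0.54. SLC38A1 and SLC38A2 share a stretch in which 5 of the 8 neighbours of SLC38A1, SLC38A2 itself among them, were higher and 0 lower. SLC38A4, a further system A gene in that stretch, was higher by 2.24 on the log2 scale. The neighbours of SLC7A5 (8 of 28 higher, 12 lower, median -0.08), SLC3A2 (7 of 37 higher, 12 lower, median 0.01) and SLC43A2 (10 of 40 higher, 20 lower, median -0.32) were lower more often than higher. Those of SLC1A4 had a median of 0.05 over 11 genes and those of SLC7A1 -0.85 over 5. Copy number was not measured.

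**Figure D4:**
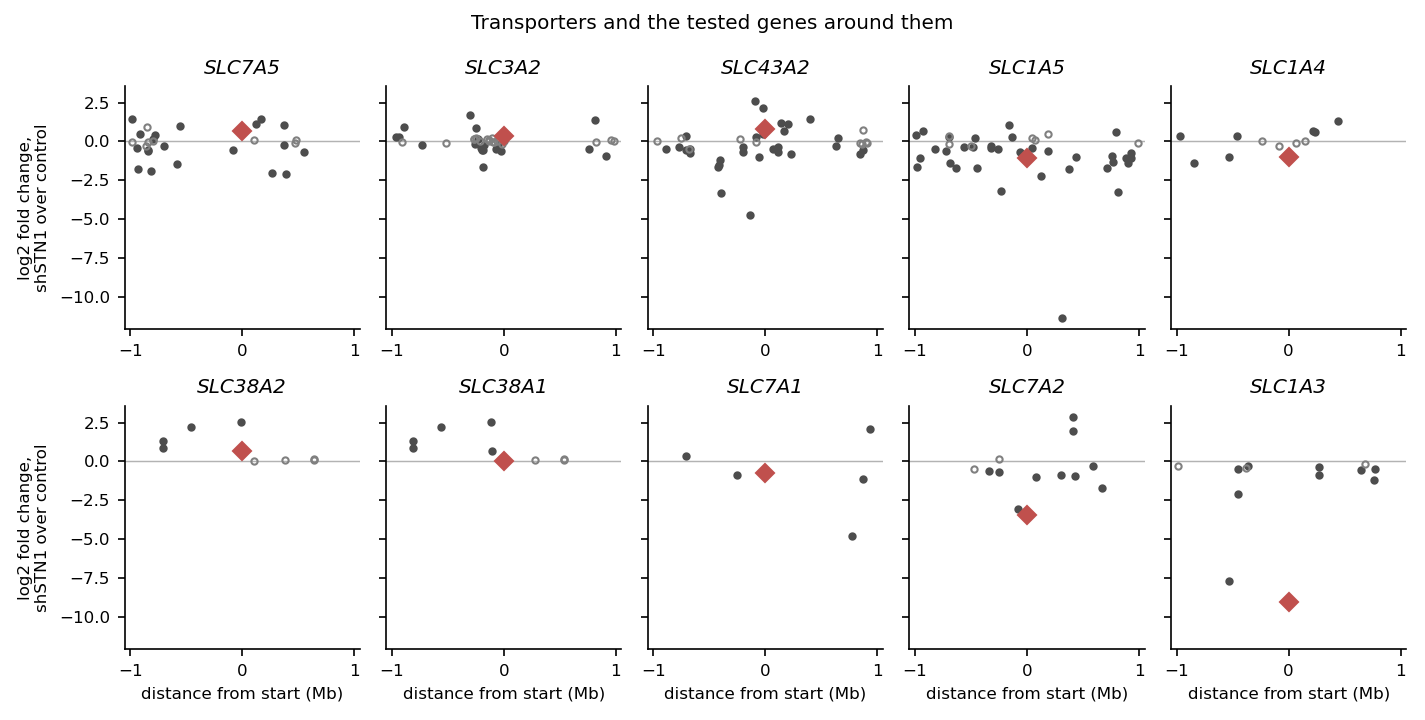
Log2 fold change of shSTN1-labelled over control libraries (vertical axis, shared) for each transporter (red diamond) and the tested genes whose start lies within 1 Mb, by distance along the transporter's strand. Filled points passed an edgeR adjusted p of 0.05 and open points did not. All 12 neighbours of SLC1A3 lie under 0, and 0 of the 8 neighbours of SLC38A1 do.

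Other amino acid carriers of the plasma membrane numbered 27, of which 15 had enough reads to be tested. Of these 4 were higher and 9 lower (median -0.69), where 35.6% of all genes tested were higher and 38.5% lower. The 4 with the smallest adjusted p were all under 2 CPM in shSTN1-labelled libraries. SLC6A15, a sodium-coupled carrier of branched-chain amino acids and proline, had 1.46 ± 0.533 CPM in shSTN1-labelled against 82.7 ± 5.66 CPM in control libraries (log2 fold change -5.78). SLC43A1, a relative of SLC43A2, had 0.545 ± 0.0792 CPM in shSTN1-labelled against 31.3 ± 2.96 CPM in control libraries (-5.81), in the opposite direction to SLC43A2. SLC7A8, which like SLC7A5 pairs with SLC3A2, had 0.298 ± 0.242 CPM in shSTN1-labelled against 27.1 ± 0.952 CPM in control libraries (-6.55), and the aromatic amino acid carrier SLC16A10 0.220 ± 0.191 CPM in shSTN1-labelled against 23.9 ± 3.21 CPM in control libraries (-6.74). Their edgeR adjusted p lay between 1.34e-26 and 4.02e-21. SLC6A6, 1 of the 4 higher genes and named after its value was seen, had the highest level of the list. It stood at 164.2 ± 7.11 CPM in shSTN1-labelled against 101.7 ± 8.98 CPM in control libraries (0.69, edgeR adjusted p = 1.75e-10).

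Further light chains of SLC3A2 and a second glutamate carrier were looked up after their values were seen. SLC7A11, the cystine and glutamate exchanger, stood at 7.86, 8.52 and 9.31 CPM in shSTN1-labelled libraries against 8.57, 8.95 and 8.07 CPM in control libraries, and the groups overlapped (log2 fold change 0.00, edgeR adjusted p = 0.994). SLC7A6 was lower (-0.32, edgeR adjusted p = 0.00448). SLC7A10 was higher at low levels, with 2.13 ± 0.189 CPM in shSTN1-labelled against 0.545 ± 0.251 CPM in control libraries (1.94 on the log2 scale, edgeR adjusted p = 1.39e-05). SLC7A7 had overlapping groups (0.61, edgeR adjusted p = 0.115). SLC1A1, a glutamate carrier of the same family as SLC1A3, was lower too (-7.26, edgeR adjusted p = 7.60e-20). It had 5 reads over the shSTN1-labelled and 847 over the control libraries, so the size of its fold rests on few reads.

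Carriers of internal membranes were also read, against the 35.6% higher and 38.5% lower of all genes tested. Of 11 tested lysosomal and vesicular carriers 4 were higher and 5 lower (median -0.03). The lysosomal histidine and peptide carrier SLC15A4 had 70.1 ± 0.679 CPM in shSTN1-labelled against 38.6 ± 1.03 CPM in control libraries (0.86 on the log2 scale) and the cationic amino acid exporter SLC66A1 at 41.1 ± 2.19 CPM in shSTN1-labelled against 25.5 ± 1.84 CPM in control libraries (0.69). MFSD12, needed for cysteine import into lysosomes, had a log2 fold change of -0.71, and SLC29A3, which the list holds but which carries nucleosides, -1.18. Of 11 mitochondrial carriers 6 were higher and 4 lower (median 0.18). The serine carrier SFXN1 had 116.6 ± 2.65 CPM in shSTN1-labelled against 225.5 ± 14.2 CPM in control libraries (-0.95), and its relatives SFXN3 (-1.11) and SFXN2 (-1.06) were lower as well. The glutamate carrier SLC25A22 was higher (0.65). With library totals 2 mitochondrial carriers were higher and 5 lower, and the higher calls numbered 3 without shSTN1 replicate 3 or without control replicate 1.

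Amino acid sensing upstream of mTORC1 had 14 of 31 genes higher and 12 lower (median 0.00), against 35.6% and 38.5% of all genes tested. SESN2, which binds leucine and holds back mTORC1, had 26.1 ± 0.804 CPM in shSTN1-labelled against 120.4 ± 11.6 CPM in control libraries (log2 fold change -2.20), and the sestrin gene SESN3 1.25 ± 0.214 CPM in shSTN1-labelled against 22.0 ± 1.45 CPM in control libraries (-4.15). The GTPase gene RRAGA was lower (-0.87) and RHEB, the direct activator of mTORC1, higher at 187.4 ± 5.52 CPM in shSTN1-labelled against 124.4 ± 4.89 CPM in control libraries (0.59). With library totals 8 of the 31 were higher and 16 lower.

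The GCN2 and ATF4 response list had 6 of 22 genes higher and 10 lower (median -0.18). Its called share, 72.7%, was near the 74.1% of all genes tested, of which 35.6% were higher and 38.5% lower. PHGDH, the first enzyme of serine synthesis, had 51.8 ± 1.82 CPM in shSTN1-labelled against 347.3 ± 17.9 CPM in control libraries (log2 fold change -2.75). ATF3 (-2.40), ATF4 itself (-1.46) and the proline synthesis gene ALDH18A1 (-1.21) were lower too, with edgeR adjusted p between 2.71e-26 and 1.18e-17. Some other genes of the list, named after their values were seen, went the other way or did not pass. DDIT3 had 19.8 ± 0.623 CPM in shSTN1-labelled against 7.01 ± 0.754 CPM in control libraries (edgeR adjusted p = 1.67e-12). CEBPG (0.71 on the log2 scale) and PPP1R15A (0.47) were higher as well. ASNS (-0.2), TRIB3 (-0.13) and DDIT4 (0.13) did not pass.

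Enzymes that use the transported amino acids are read against the 35.6% higher and 38.5% lower of all genes tested. Glutamine and glutamate enzymes had 4 of 18 higher and 9 lower (median -0.19). The glutamine synthetase gene GLUL had 85.6 ± 1.14 CPM in shSTN1-labelled against 431.8 ± 13.3 CPM in control libraries (-2.34 on the log2 scale), and GFPT2 (-3.12), GPT2 (-1.71) and GOT2 (-1.22), which use glutamine or glutamate as nitrogen donors or acceptors, were lower. Branched-chain amino acid enzymes had 0 of 14 higher and 8 lower (median -0.30). At an adjusted p of 0.05, limma-voom called 1 higher, and so did edgeR with at least 1 CPM in 3 libraries. BCAT1, which starts leucine breakdown in the cytosol, had 9.35 ± 0.699 CPM in shSTN1-labelled against 57.6 ± 2.59 CPM in control libraries (-2.62), with PPM1K at -2.75, DBT at -1.88 and DLD at -0.58. Cytosolic aminoacyl-tRNA synthetases had 4 of 20 higher and 13 lower (median -0.30), among them IARS1 (-1.43), FARSA (-1.25), EPRS1 (-0.87) and YARS1 (-0.85).

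Arginine and polyamine enzymes had 10 of 16 higher and 5 lower (median 0.46), against 35.6% higher and 38.5% lower of all genes tested. The polyamine breakdown genes SMOX and SAT1 were higher. SMOX had 152.1 ± 6.30 CPM in shSTN1-labelled against 32.0 ± 3.70 CPM in control libraries (2.25 on the log2 scale), and SAT1 324.1 ± 18.2 CPM in shSTN1-labelled against 88.4 ± 7.63 CPM in control libraries (1.88). The arginine synthesis gene ASS1 had 8.35 ± 0.720 CPM in shSTN1-labelled against 53.7 ± 2.89 CPM in control libraries (-2.68) and the arginase gene ARG2 1.58 ± 0.368 CPM in shSTN1-labelled against 18.1 ± 1.63 CPM in control libraries (-3.51). Other arginine genes, named after their values were seen, went the other way, with ASL, which follows ASS1 in arginine synthesis, at 1.41, NOS3 at 1.37 and OAT at 0.49 on the log2 scale (edgeR adjusted p between 7.49e-15 and 7.10e-07). All of these differences lie between libraries that also differ in epithelial and embryonic kidney line markers, whose part in them was not tested.

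**Figure D5:**
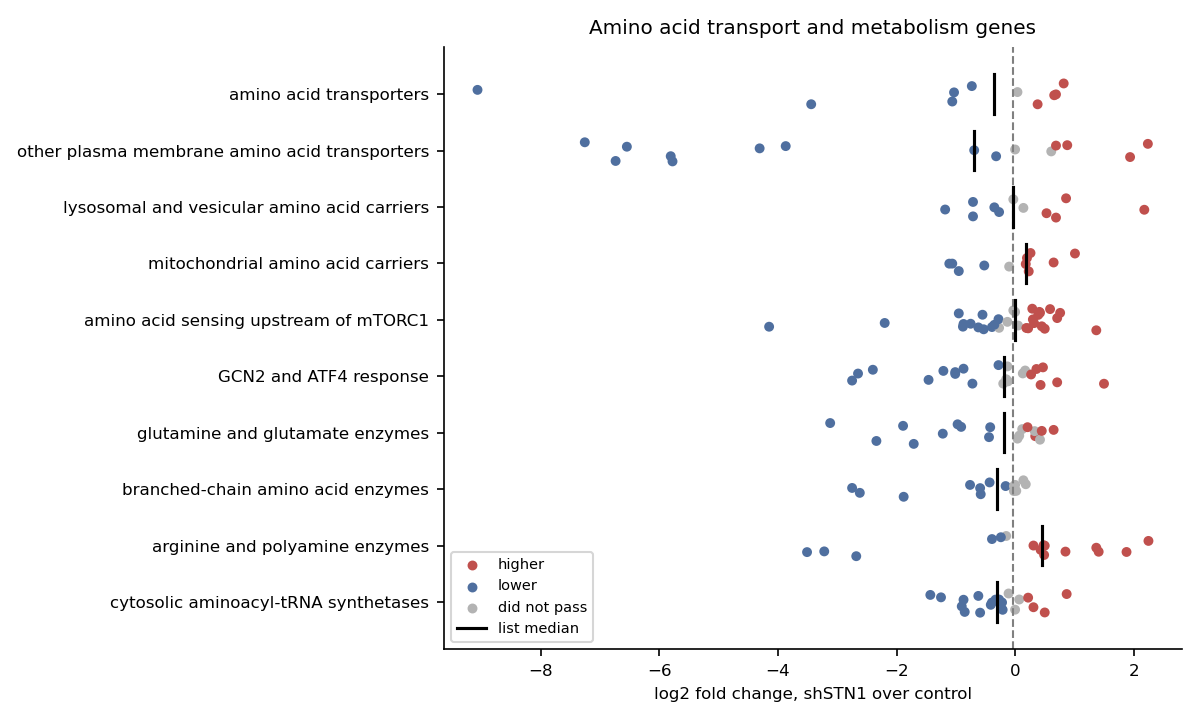
Log2 fold change of shSTN1-labelled over control libraries (horizontal axis) for every tested gene of the 10 lists, red for higher, blue for lower and grey for not passed at an edgeR adjusted p of 0.05. Black bars are list medians, from -0.69 for other plasma membrane carriers to 0.46 for arginine and polyamine enzymes, and the dashed line is the median of all genes tested (-0.03).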

How the data were processed

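The table the authors deposited holds raw counts of reads for each gene and library. Per the submitters' processing notes reads went through featureCounts 2.0.1, STAR 2.7.2b, FastQC and cutadapt, in an order not stated, with GRCh38. No source used here gives the annotation release or strand setting, so overlapping and antisense genes can share or lose reads. Of 60668 rows, 45 second copies of pseudoautosomal genes were left out. Coordinates and joined exon lengths came from GENCODE 29, in which 58516 of 60623 identifiers were found.

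All 6 libraries were fitted on the whole table with edgeR 4.0.16 (filterByExpr, TMM, robust quasi-likelihood test, no covariates), with Benjamini-Hochberg adjustment over 17451 genes and a threshold of 0.05. CPM used the TMM-scaled sizes. An SE refers to the difference of mean log2 CPM (prior count 2), and intervals came from limma-voom (limma 3.58.1). Ratios had 0.5 reads added to each count. Group means carry the SD of 3 libraries. Intervals on reads and floors cover counting error only.

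The members, the gene lists and the rule for named genes (per list, up to 4 genes by adjusted p whose groups do not overlap and whose higher mean reaches 5 CPM) were chosen with earlier results of these data known. All 225 list entries were found, 18 of them through an older symbol. Alternatives were RLE and upper-quartile factors, library totals, no filter, at least 1 CPM in 3 libraries, DESeq2 1.42.0, limma-voom, the replicate number as a block, an adjusted p under 0.01, and leaving out each library. On simulated counts for this comparison (16744 genes run) 80% of genes changed 1.5-fold and 98% of those changed 2-fold were recovered, and 4.55% of calls were false. The simulation changed only 50 genes at each fold size, with the same dispersion for every gene. In the real libraries 74.1% of genes were called, so these rates do not carry over to them. Counts of replicates gave a chi-square of 2.95 to 8.73 per degree of freedom, above sampling noise.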

Additional observations from a re-analysis of the deposited data

How the results depend on the processing

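Under every alternative run 4 transporters were higher and 5 lower, and of 140 alternative values of their fold changes 137 kept direction and call. The exceptions are SLC38A1, at -0.16 with library totals, -0.06 without shSTN1 replicate 2 and -0.03 without control replicate 3, with -0.06 to 0.13 over all left-out libraries. Library totals moved the median of all genes to -0.22, against -0.03 with TMM, and with them STN1 came to -0.35 (adjusted p = 0.00909), the only alternative in which it passed. In the same setting mitochondrial carriers had 2 higher and 5 lower calls, amino acid sensing 8 and 16, glutamine and glutamate enzymes 2 and 10, and aminoacyl-tRNA synthetases 2 and 15. An adjusted p under 0.01 left 3 mitochondrial carriers higher. Branched-chain enzymes had 1 higher call with at least 1 CPM in 3 libraries and with limma-voom, and 0 to 1 over left-out libraries, while mitochondrial carriers had 3 to 6. The log2 ratio of SLC1A5 to SLC1A4 ran from -0.12 to 0.05 over left-out libraries. Genes called numbered 11619 to 13901 over the alternatives, and 12742 with the replicate block, 12710 of them also called without it. Same-numbered libraries showed no shared deviation from their group means (correlations -0.0123, 0.0171 and -0.0337), so the replicate numbers were treated as names and not as pairs. These values do not show whether same-numbered libraries were prepared together. The block left 4 transporters higher and 5 lower, STN1 at -0.15, and the ratios at 0.30, -0.04 and 0.63 with exact sign-flip p of 0.25, 1.00 and 0.25, where 3 pairs cannot go below 0.25. The 3 reads of SLC1A3 leave its fold known only within the counting interval given.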
